A study of Mus musculus with 6 samples.

Results

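The S100 genes encode small proteins with paired EF-hand calcium-binding motifs, and 10 of them, S100a1, S100a4, S100a6, S100a8, S100a9, S100a10, S100a11, S100a13, S100a14 and S100a16, were followed in basal cells of the mouse prostate. They were taken by name from the 25273 genes that had a value. The 3 proximal libraries held basal epithelial cells from the ducts nearest the urethra, and the 3 distal libraries held basal epithelial cells from the ducts toward the gland tips. All came from C57BL/6 mice aged 8 to 12 weeks, and the labels name no transgene, mutation or drug in either group. The labels describe dissociation, antibody staining and cell sorting, but they give no gate for the basal cells. Nor do they state that each library is a separate animal, and the p-values therefore rest on a spread between libraries that could be technical.

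S100 proteins have no enzyme activity of their own. Most form dimers that open when calcium binds and then hold a partner protein, often an annexin, a family that binds membranes in the presence of calcium. S100a10 is the exception, since it has lost calcium binding and stays in the open form. Some members also leave the cell and act as alarm signals on receptors such as Ager and Tlr4. In the mouse most S100 genes lie on chromosome 3 in the epidermal differentiation complex, beside the genes that build the cornified envelope of stratified epithelium.

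Expression was measured by RNA sequencing as FPKM, fragments per length of transcript relative to the sequencing depth, which can be compared between genes. The deposited intervals implied 24400000, 22000000 and 26900000 fragments in the proximal libraries and 21600000, 27700000 and 23800000 fragments in the distal ones, and 9910 to 10301 genes reached 1 FPKM in each library. The basal keratin Krt14 stood at 2121 to 2276 FPKM in the proximal and 2283 to 3397 FPKM in the distal libraries. Of the 11 tested basal markers, 5 passed the test as higher in the proximal libraries and none as lower, with a median log2 fold change of 0.45. Over all genes tested, 4.52% were higher and 2.50% lower. Krt14 and Krt17 were lower in every proximal library than in any distal one but did not pass (limma, adjusted p = 0.365 and 0.171). Trp63 had a log2 fold change of -0.70 and overlapped. The calls of Krt5 and Krt15 were lost in 5 and 6 of 15 alternative settings. Markers of other cells differed between the groups. In the list of proximal luminal progenitor markers, 8 of 10 tested genes were higher in the proximal libraries, where the list summed to 1851 to 2140 FPKM, against 965 to 1033 FPKM in the distal ones. Among those 8, Psca and Cldn10 averaged below 1 FPKM in the distal libraries. They reached the average of 1 FPKM needed for testing only through the proximal ones. The list of genes induced by tissue dissociation summed to 6725, 7551 and 8543 FPKM in the proximal and 9293, 16627 and 17361 FPKM in the distal libraries, with 2 of 13 tested genes lower. Distal replicate 1 thus stood nearer the proximal libraries than the other distal ones. In such bulk samples, fewer cells of a type and less RNA per cell cannot be told apart.

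All 10 members lie on chromosome 3 (mm10) in a pair of groups. S100a1 (90511034 to 90514392, minus strand), S100a13 (90514435 to 90524581), S100a14 (90526856 to 90528837), S100a16 (90537254 to 90543151), S100a4 (90603771 to 90606045), S100a6 (90612882 to 90624181), S100a8 (90668978 to 90670035) and S100a9 (90692632 to 90695721, minus strand) form the first group. S100a11 (93520488 to 93526287) and S100a10 (93555080 to 93564643) form the other, on the far side of the cornified envelope genes. Genes for which no strand is given are on the plus strand.

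The stretches just upstream of 3 members are shown because S100a11 and S100a4 rose in proximal cells, as described below, while S100a6, among the most abundant members, did not pass the test. They are RefSeq sequences (GRCm38.p6) of the 250 bases before the annotated start, written 5′ to 3′ along the gene, and capitals mark matches to the motifs searched.
S100a11, chr3:93520246-93520495, plus strand: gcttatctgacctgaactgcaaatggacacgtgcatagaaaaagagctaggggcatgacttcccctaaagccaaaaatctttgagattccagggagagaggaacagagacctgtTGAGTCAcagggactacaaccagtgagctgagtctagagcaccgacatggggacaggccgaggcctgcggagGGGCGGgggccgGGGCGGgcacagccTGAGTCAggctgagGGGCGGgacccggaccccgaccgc
S100a4, chr3:90603520-90603769, plus strand: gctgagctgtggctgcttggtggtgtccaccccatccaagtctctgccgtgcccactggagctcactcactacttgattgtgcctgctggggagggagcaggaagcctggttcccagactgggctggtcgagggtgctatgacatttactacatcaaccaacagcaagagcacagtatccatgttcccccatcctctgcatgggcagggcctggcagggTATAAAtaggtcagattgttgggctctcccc
S100a6, chr3:90612644-90612893, plus strand: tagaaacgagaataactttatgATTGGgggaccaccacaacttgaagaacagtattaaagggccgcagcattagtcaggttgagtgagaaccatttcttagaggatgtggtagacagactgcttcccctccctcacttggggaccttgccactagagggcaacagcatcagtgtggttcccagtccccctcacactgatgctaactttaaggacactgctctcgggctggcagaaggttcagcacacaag

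The TATA box was searched as TATAAA. The AP-1 site, bound by Jun and Fos factors, was searched as TGANTCA. The GC box, bound by Sp factors, was searched as GGGCGG. The motif of nuclear factor Y was searched as CCAAT. The site of TEAD factors was searched as CATTCC. Both strands were read, and none of the matches overlap. Positions count back from -1, the base just before the start. S100a11 had the AP-1 letters TGAGTCA at -136 to -130 and again at -38 to -32, and GC boxes starting at -64, -52 and -24. S100a4 had TATAAA at -31 to -26, and S100a6 had the nuclear factor Y motif on the other strand at -228 to -224. Over 32851 upstream windows of the same length, 12.4% held TATAAA, 6.75% the AP-1 letters, 32.7% the GC box, 33.8% the nuclear factor Y motif and 12.6% the TEAD letters. The GC content was 60.0% for S100a11, 57.2% for S100a4 and 50.0% for S100a6, against a median of 52.4% over all windows. Some of these motifs also lay upstream of members that did not pass the test or were not tested. S100a16 had the AP-1 letters at -192 to -186 and a GC box at -30 to -25, before its start at 90541146. S100a8 had TATAAA at -30 to -25, and S100a9 had a GC box at -223 to -218. A match describes letters and not a bound site, and 8 of the 10 members had an entry in the table.

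S100a1 and S100a13 are shown as the stretch between them, because these genes start head to head. Their RefSeq starts, at 90514330 on the minus strand and 90514435 on the plus strand, are separated by only 104 bases, with a GC content of 58.7% and no match to the motifs searched.
S100a1 to S100a13, chr3:90514331-90514434, plus strand: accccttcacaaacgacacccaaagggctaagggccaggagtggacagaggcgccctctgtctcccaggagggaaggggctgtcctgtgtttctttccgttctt

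The members spanned a wide range of levels. S100a10 and S100a6 each had a mean above that of 99.6% of the 10255 genes tested, S100a11 above 99.3% and S100a16 above 98.2%, whereas S100a4 stood above 36.5%. Summed over all 10 members, the level was 3453, 2741 and 3475 FPKM in the proximal and 3052, 2380 and 2533 FPKM in the distal libraries. That was 0.865%, 0.736% and 0.884% of all FPKM in the proximal and 0.733%, 0.597% and 0.622% in the distal libraries, so the groups overlapped in the sum and were only just apart in the share.

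**Figure D1:**
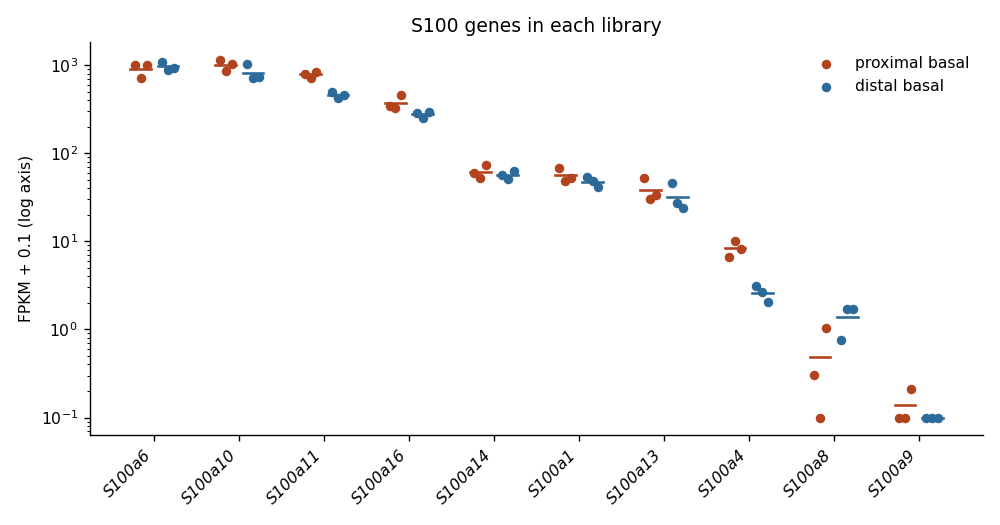
Level of each S100 member in every library, as FPKM + 0.1 on a log axis, with a point per library and a line at the group mean, proximal left of distal. The groups are apart for S100a11, S100a16 and S100a4, and the proximal means run from 1001 FPKM for S100a10 down to S100a9, at 0 in 5 of 6 libraries.

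The order of the levels differed at its top between the duct regions. In proximal cells the ranges of S100a10 (848 to 1134 FPKM), S100a6 (714 to 996 FPKM) and S100a11 (715 to 838 FPKM) overlapped one another. In distal cells S100a11 (417 to 498 FPKM) lay below both S100a6 (876 to 1094 FPKM) and S100a10 (705 to 1017 FPKM), which overlapped each other. S100a16 came next in both regions, apart from its neighbours. S100a14, S100a1 and S100a13 followed in that order of means in both regions, with ranges that overlapped from one to the next, and then S100a4, S100a8 and S100a9.

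The regions were compared with limma on log2(FPKM + 1) for every gene that averaged 1 FPKM or more over the 6 libraries, and a gene was called where its p, adjusted over all 10255 genes tested, was under 0.05. Of the 10 members, 8 reached that level and S100a8 and S100a9 did not. Among the 8, S100a4 and S100a11 were higher in proximal cells, none was lower and 6 did not pass. Of all genes tested, 4.52% were called higher and 2.50% lower, or 7.02% in either direction. The median log2 fold change of the 8 tested members was 0.28, against -0.01 for all genes tested, of which 48.5% had a positive value. The proximal values lay wholly above the distal ones for S100a4, S100a11 and S100a16, and the other 5 tested members overlapped. Of all genes tested, 15.8% lay wholly above, and 28.8% did not overlap in one direction or the other. Log2 fold changes are given as proximal minus distal and rest on log2(FPKM + 1), so for weakly expressed genes they are smaller than the change in FPKM itself.

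S100a11, known as calgizzarin, binds annexin A1 and has been studied in the growth control of human keratinocytes. It stood at 798, 715 and 838 FPKM in the proximal libraries, against 498, 417 and 455 FPKM in the distal ones. Every proximal value was above every distal value. Mean levels were 784 ± 62.7 FPKM proximally and 457 ± 40.5 FPKM distally (SD, n = 3 each), 1.72 times as much in proximal cells, with a log2 fold change of 0.78 ± 0.12 (SE, by limma, adjusted p = 0.0109). The lowest proximal value had a deposited 95% interval of 695 to 736 FPKM and the highest distal one of 481 to 515 FPKM. These intervals cover the estimation of each library's own value. The call was lost without proximal replicate 3 (adjusted p = 0.0510, limma), distal replicate 2 (0.0642) or distal replicate 3 (0.0579), while the log2 fold change stayed at 0.72 or more. Without both libraries numbered 1 it was 0.83 (limma, adjusted p = 0.00886). Processed copies of S100a11 elsewhere in the genome could share reads with it, and the deposited values do not show how such reads were divided. Its rise went with that of the proximal luminal progenitor markers given above, whose part in it was not tested.

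Ratios taken within a library set S100a11 against the other abundant members without any scaling between libraries. Its ratio to S100a10 was 0.704, 0.844 and 0.820 in the proximal and 0.490, 0.592 and 0.622 in the distal libraries. The ratio to S100a6 was 0.801, 1.00 and 0.846 in the proximal and 0.455, 0.476 and 0.493 in the distal libraries. Neither ratio overlapped between the regions. S100a11 was itself called higher and the other members were not, so these ratios partly restate its own difference. The ratio of S100a6 to S100a10, at 0.879, 0.842 and 0.970 in the proximal and 1.08, 1.24 and 1.26 in the distal libraries, did not overlap either, although neither gene passed the test on its own. The ratios are given as a description, without a test.

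Anxa1 encodes annexin A1, the membrane-binding partner of S100a11 that is also known for dampening inflammation. It reached 410, 271 and 310 FPKM in the proximal libraries, against 126, 107 and 124 FPKM in the distal ones. The groups did not overlap, and Anxa1 rose in proximal cells with a log2 fold change of 1.45 ± 0.16 (SE, by limma, adjusted p = 0.00265). The ratio of S100a11 to Anxa1 was lower in every proximal library, at 1.95, 2.64 and 2.70, against 3.95, 3.89 and 3.66 in distal cells. Both genes rose, and the log2 fold change of Anxa1 was the larger of the pair.

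S100a10, also called p11, is the light chain of the annexin A2 complex, which sits under the plasma membrane and binds plasminogen and its activator at the cell surface. It was the most abundant member in proximal cells, at 1134, 848 and 1022 FPKM, against 1017, 705 and 731 FPKM in distal cells. The groups overlapped. The log2 fold change was 0.30 ± 0.18 (SE), with a 95% interval of -0.12 to 0.72, and did not pass (limma, adjusted p = 0.357). It was 0.47 without distal replicate 1 and 0.20 without distal replicate 2. Anxa2, the other chain of the complex, stood at 1192, 1120 and 1246 FPKM in the proximal and 874, 808 and 901 FPKM in the distal libraries, with no overlap, and narrowly missed the threshold with a log2 fold change of 0.46 ± 0.12 (SE, by limma, adjusted p = 0.0600). The ratio of S100a10 to Anxa2 was 0.952, 0.757 and 0.820 in proximal and 1.16, 0.873 and 0.812 in distal cells, and overlapped. Anxa2 passed the same test with quantile normalization, without the variance trend and without both libraries numbered 1.

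Ahnak encodes a giant scaffold protein that the S100a10 and annexin A2 complex brings to the membrane. It stood at 86.9, 101 and 101 FPKM in the proximal libraries, against 57.1, 59.4 and 59.2 FPKM in the distal ones, without overlap. Ahnak rose in proximal cells with a log2 fold change of 0.71 ± 0.10 (SE, by limma, adjusted p = 0.00670). It was the only one of 18 tested partner genes that passed, with a median log2 fold change of 0.04 over those 18. That count is near the share over all genes tested, of which 4.52% were higher and 7.02% passed in either direction. Plat, the tissue plasminogen activator that the complex binds, had a log2 fold change of 0.61 and missed the threshold (limma, adjusted p = 0.067). Plaur, the receptor of the other activator, urokinase, was abundant at 881, 715 and 863 FPKM in the proximal and 748, 552 and 626 FPKM in the distal libraries, and overlapped (limma, adjusted p = 0.207).

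**Figure D2:**
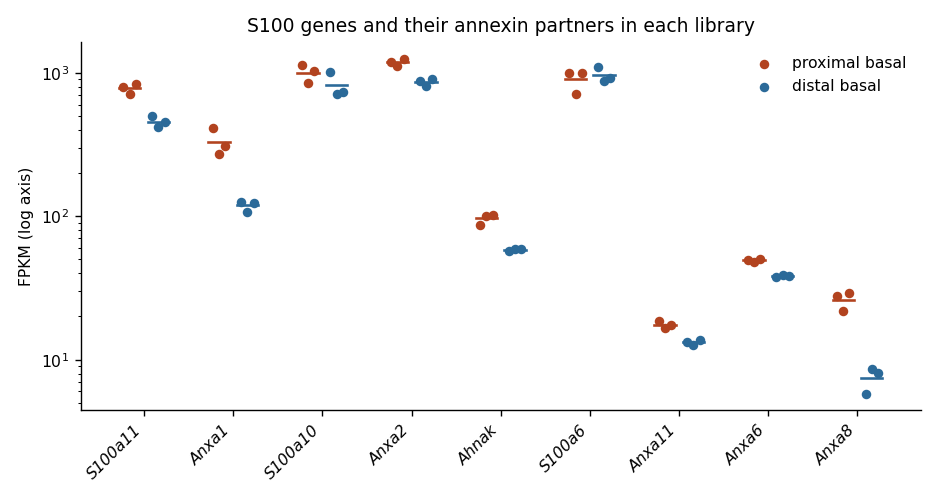
FPKM on a log axis of S100a11, S100a10 and S100a6, of 5 annexins and of Ahnak in every library, with a point per library and a line at the group mean, proximal left of distal. S100a11, Anxa1, Ahnak, Anxa6 and Anxa8 are apart between the groups and passed the test, Anxa2 and Anxa11 are apart and did not pass, and S100a10 and S100a6 overlap.

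S100a6, or calcyclin, is a marker of proliferating cells and fibroblasts and binds Cacybp, a protein of the ubiquitin system, and annexin A11. It stood at 996, 714 and 991 FPKM in the proximal libraries, against 1094, 876 and 922 FPKM in the distal ones. The groups overlapped, and proximal replicate 2 was the lowest of all. The log2 fold change was -0.11 ± 0.17 (SE), with a 95% interval of -0.50 to 0.29 (limma, adjusted p = 0.748), and its sign turned to 0.02 with quantile normalization and to 0.05 without proximal replicate 2. Cacybp had a log2 fold change of 0.02 and did not pass. Anxa11 reached 18.7, 16.6 and 17.4 FPKM in the proximal and 13.4, 12.8 and 13.7 FPKM in the distal libraries, which did not overlap, and missed the threshold (limma, adjusted p = 0.0650). Among the tested members, S100a6 alone had a negative log2 fold change on the values as deposited.

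S100a16 is an S100 protein found in many tissues. Its values were 339, 324 and 456 FPKM in the proximal libraries, against 284, 251 and 294 FPKM in the distal ones. The regions did not overlap, but proximal replicate 3 stood above the other proximal libraries by more than those were above distal replicate 3. The log2 fold change was 0.42 ± 0.15 (SE), with an unadjusted p of 0.0262 that did not pass after adjustment (limma, adjusted p = 0.146). Without proximal replicate 3 the log2 fold change was 0.26.

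S100a14, a member found mainly in epithelia, stood at 59.7, 52.3 and 73.2 FPKM in the proximal libraries, against 56.4, 50.6 and 62.1 FPKM in the distal ones. The regions overlapped, and the log2 fold change was 0.12 ± 0.14 (SE, by limma, adjusted p = 0.657). The high value of proximal replicate 3 included 14.2 FPKM, with a deposited interval of 12.2 to 16.3 FPKM, assigned to a transcript of 1095 bases that was listed at 0 in the other 5 libraries. The transcript of 1078 bases, which carried the rest, was at 59.7, 52.3 and 58.9 FPKM in the proximal and 56.4, 50.6 and 62.1 FPKM in the distal libraries, a log2 fold change of 0.02. Without proximal replicate 3 the log2 fold change of the gene was -0.01.

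S100a1 is best known from heart muscle, where it binds the calcium release channel, and S100a13 takes part in the export of Fgf1 and Il1a, proteins that lack a signal peptide. S100a1 was at 67.0, 48.2 and 52.1 FPKM in the proximal and 53.3, 48.3 and 40.7 FPKM in the distal libraries. S100a13 was at 52.0, 29.9 and 33.2 FPKM in the proximal and 45.1, 27.2 and 23.9 FPKM in the distal libraries. Both overlapped between the regions, and for both the library numbered 1 was the highest of its region. The log2 fold change was 0.22 ± 0.15 for S100a1 and 0.26 ± 0.27 for S100a13 (SE), and neither passed (limma, adjusted p = 0.419 and 0.596). Leaving out 1 library moved both, S100a1 to 0.09 without proximal replicate 1 and up to 0.32 without proximal replicate 2, and S100a13 to 0.03 without proximal replicate 1 and up to 0.53 without distal replicate 1. The ratio of S100a1 to S100a13, the pair that starts head to head, was 1.29, 1.61 and 1.57 in the proximal and 1.18, 1.77 and 1.70 in the distal libraries. Fgf1 and Il1a had log2 fold changes of -0.03 and -0.10 and did not pass.

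**Figure D3:**
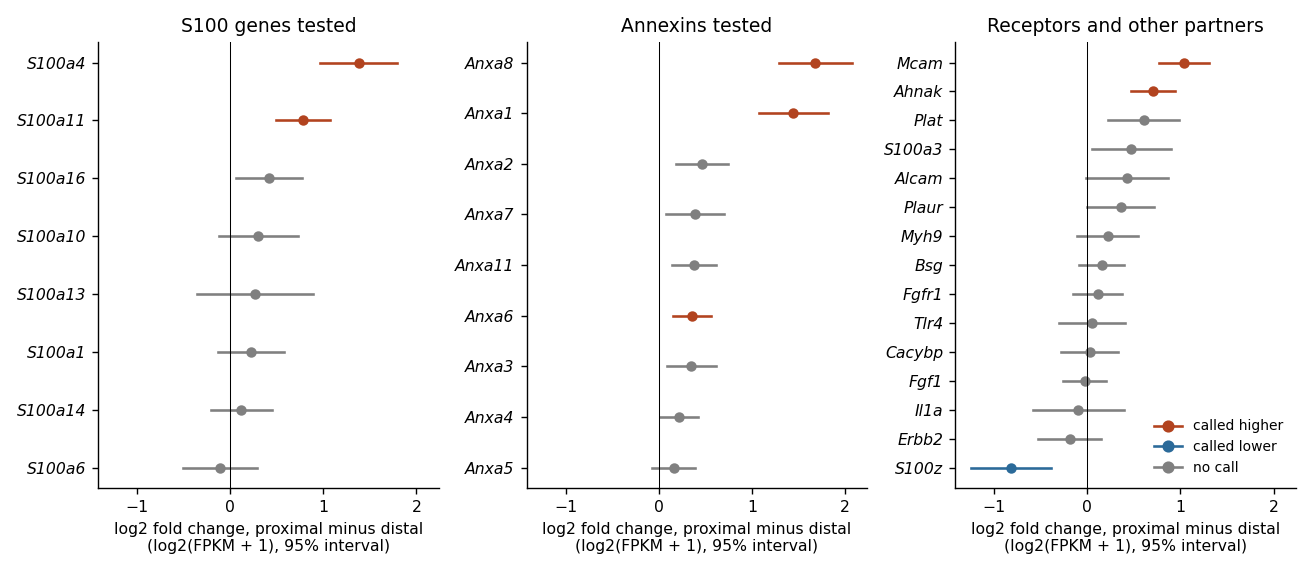
Log2 fold change, proximal minus distal on log2(FPKM + 1), with its 95% interval as a line, of the 8 tested S100 members, the 9 tested annexins and chosen receptors, partners and other S100 genes, in orange where called higher, blue where called lower and grey where not called. S100a4 stands at 1.38 and S100a11 at 0.78, and the other members lie between -0.11 and 0.42.

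S100a4, also called metastasin or Fsp1, binds the heavy chain of non-muscle myosin and is strongly expressed in fibroblasts and several leukocytes as well as in motile epithelial cells. It stood at 6.58, 9.88 and 8.08 FPKM in the proximal libraries, against 3.05, 2.55 and 1.97 FPKM in the distal ones. The lowest proximal value was above the highest distal value by more than the range within either group. Mean levels were 8.18 ± 1.65 FPKM proximally and 2.52 ± 0.539 FPKM distally (SD, n = 3 each), 3.24 times as much in proximal cells. Its log2 fold change of 1.38 ± 0.18 (SE, by limma, adjusted p = 0.00481) was the highest among the members, and it passed in all 15 alternative settings, with adjusted p-values of 0.00363 to 0.0299. Without both libraries numbered 1 it was 1.61. The deposited 95% intervals were apart as well, with 4.71 FPKM as the lowest bound in a proximal library and 4.38 FPKM as the highest bound in a distal one. Myh9, the non-muscle myosin heavy chain that S100a4 binds, had a log2 fold change of 0.22 and did not pass (limma, adjusted p = 0.391).

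Most tested markers of connective tissue and vessels moved with S100a4. In the fibroblast list 7 of 9 tested genes were higher in the proximal libraries, against 4.52% of all genes tested. None of the list was at 0 in all libraries. Among these 7, Pdgfrb averaged below 1 FPKM in the distal libraries and met the filter only through the proximal ones. The whole list summed to 719 to 789 FPKM in the proximal and 778 to 821 FPKM in the distal libraries, most of it from Dcn. Dcn itself lay wholly lower in the proximal libraries, at 710, 685 and 641 FPKM, against 781, 789 and 737 FPKM in the distal ones. It was not called (limma, adjusted p = 0.365), and Lum, Pdgfra and Thy1 overlapped. Without Dcn the list summed to 78.6 to 89.0 FPKM in the proximal and 31.9 to 40.6 FPKM in the distal libraries. Vim, the intermediate filament of mesenchymal cells, was at 23.1, 27.3 and 23.7 FPKM in the proximal and 8.42, 5.69 and 7.22 FPKM in the distal libraries (limma, adjusted p = 0.000867). The matrix gene Postn was at 10.6, 14.1 and 11.3 FPKM in the proximal and 2.21, 2.88 and 2.19 FPKM in the distal libraries (limma, adjusted p = 0.000527). Like S100a4, both rose and were higher in every proximal library than in any distal one, and the ratio of S100a4 to Vim overlapped, at 0.285, 0.361 and 0.342 in the proximal and 0.362, 0.448 and 0.273 in the distal libraries.

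None of the endothelial markers was at 0 in all libraries. Endothelial markers summed to 19.6 to 28.7 FPKM in the proximal and 2.53 to 12.8 FPKM in the distal libraries. Of 7 tested genes 5 were higher, against 4.52% of all genes tested. Among these 5, Cdh5, Kdr and Tie1 averaged below 1 FPKM in the distal libraries. They met the filter only through the proximal ones, so the count partly follows from the filter. The call of Emcn was lost in 6 of 14 alternative settings. Pan-leukocyte markers overlapped, at 5.49 to 7.19 FPKM in the proximal and 2.97 to 8.35 FPKM in the distal libraries, and Ptprc, which defines leukocytes, reached at most 0.0436 FPKM in any library. The part of these cell types in the S100a4 difference was not tested.

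**Figure D4:**
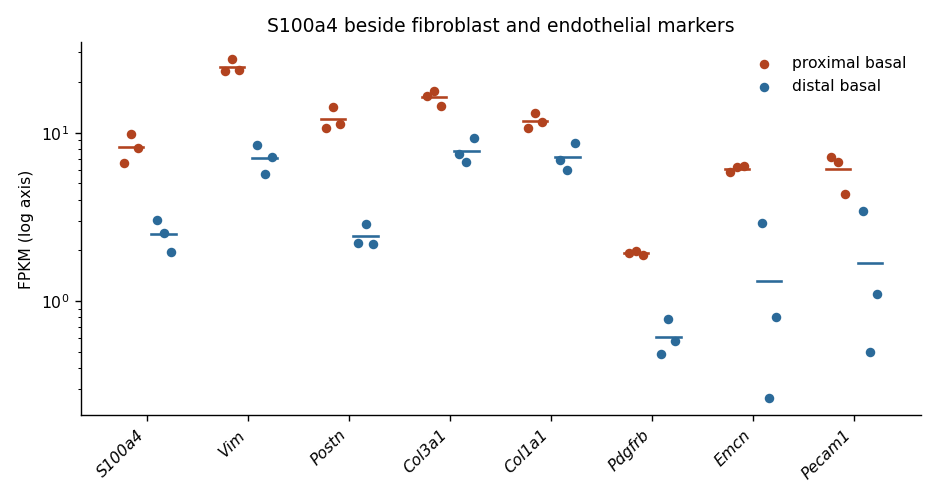
FPKM on a log axis of S100a4 and of fibroblast (Vim, Postn, Col3a1, Col1a1, Pdgfrb) and endothelial (Emcn, Pecam1) markers in every library, with a point per library and a line at the group mean, proximal left of distal. All 8 genes are higher in every proximal library than in any distal one, and Pecam1 did not pass the test. Of the fibroblast list, Dcn, not shown, is lower in every proximal library, and Lum, Pdgfra and Thy1, not shown, overlap.

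S100a8 and S100a9 form calprotectin, the main calcium-binding protein of neutrophils, which stressed keratinocytes can also make. S100a8 was at 0.204, 0 and 0.937 FPKM in the proximal libraries, against 0.668, 1.61 and 1.61 FPKM in the distal ones, a mean of 0.839 FPKM over all 6. The regions overlapped, and the deposited intervals were wide, reaching from 0.0989 to 1.77 FPKM in proximal replicate 3 and from 0.538 to 2.69 FPKM in distal replicate 2. S100a9 was listed at 0.112 FPKM in proximal replicate 3 and at 0 in the other 5 libraries. With no filter on level, S100a8 had a log2 fold change of -0.76, with an unadjusted p of 0.0381, and did not pass (limma, adjusted p = 0.233). No difference between the regions was called for either gene.

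Neutrophil markers were nearly absent beside them. Of 12 such genes with a value, 11 were below 1 FPKM in every library, and Camp, Elane and Retnlg were listed at 0 in all 6. Lcn2, which epithelia also secrete, was the exception, and without it the list summed to at most 0.351 FPKM in the proximal and 0.558 FPKM in the distal libraries. Of the receptors for released S100 proteins, Ager stayed at or under 0.339 FPKM. Tlr4 was at 5.23, 4.27 and 3.54 FPKM in the proximal and 4.45, 4.24 and 3.69 FPKM in the distal libraries, a log2 fold change of 0.05. Bsg, a surface glycoprotein that binds S100A9 in human cells, did not pass either (log2 fold change 0.15, limma, adjusted p = 0.419). Ager was thus near 0, and the values of Tlr4 overlapped between the regions.

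Mcam, a cell adhesion molecule reported as a receptor for S100A8 and S100A9 in human cancer cells and also a marker of vessel walls, was the only one of 6 tested receptor genes that passed. The share that passed over all genes tested was 7.02%. Mcam stood at 8.59, 7.93 and 7.95 FPKM in the proximal libraries, against 3.73, 3.15 and 3.53 FPKM in the distal ones, without overlap. Mcam rose with a log2 fold change of 1.04 ± 0.12 (SE, by limma, adjusted p = 0.00270), beside the endothelial markers given above, whose part was not tested.

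In the annexin family as a whole, 3 of 9 tested genes rose in proximal cells, against 4.52% of all genes tested. None fell and 6 did not pass, with a median log2 fold change of 0.38. For all 9 annexins, those that did not pass included, the proximal values lay wholly above the distal ones, where 15.8% of all genes tested did so. Besides Anxa1, the second that rose was Anxa8, an annexin of stratified epithelia, at 27.6, 21.9 and 29.1 FPKM in the proximal and 5.79, 8.61 and 8.11 FPKM in the distal libraries. The regions did not overlap, and the log2 fold change was 1.68 ± 0.17 (SE, by limma, adjusted p = 0.00147). The last was Anxa6, a large annexin of the plasma membrane and endosomes, at 49.8, 48.3 and 49.9 FPKM in the proximal and 37.6, 39.1 and 38.2 FPKM in the distal libraries. Its log2 fold change was 0.36 ± 0.09 (SE), and its call only just passed (limma, adjusted p = 0.0499) and was lost in 11 of 15 alternative settings, including each setting that left out 1 library, with adjusted p-values up to 0.173. Of 11 tested EF-hand genes outside the family, Capn2, a calcium-activated protease, was the only one that passed, where 7.02% of all genes tested did so. Capn2 was at 157, 163 and 143 FPKM in the proximal and 98.8, 89.6 and 91.8 FPKM in the distal libraries (log2 fold change 0.72 ± 0.10 SE, by limma, adjusted p = 0.00620).

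Other mouse S100 genes were expressed at a low level or not at all. Of 8 with a value, S100pbp included, 4 were tested, none was higher and S100z was lower in proximal cells. S100z averaged 0.487 FPKM in the proximal and 1.63 FPKM in the distal libraries, so it met the filter only through the distal ones. S100z was at 0.728, 0.399 and 0.335 FPKM in the proximal libraries, against 1.18, 1.60 and 2.12 FPKM in the distal ones, without overlap, and fell by 0.82 on the log2 scale (limma, adjusted p = 0.0402). That call was lost in 6 of 14 alternative settings, at a highest adjusted p of 0.144: with a pseudocount of 0.1, with no filter and without proximal replicate 2 or 3 or distal replicate 2 or 3. S100a3, a member known from the hair cuticle, was at 4.50, 3.46 and 3.55 FPKM in the proximal and 3.31, 2.41 and 1.85 FPKM in the distal libraries, without overlap and without a call (limma, adjusted p = 0.165). S100a7a was at 1.08, 1.75 and 1.71 FPKM in the proximal and 0.964, 2.73 and 3.49 FPKM in the distal libraries, which overlapped. S100pbp, which encodes a binding partner of S100 proteins and not an S100 protein, did not pass (limma, adjusted p = 0.209). S100b stayed below 1 FPKM in every library, S100a5 was listed at 0.186 FPKM in distal replicate 1 and at 0 elsewhere, and S100g was listed at 0 in all 6.

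Genes beside the S100 genes on chromosome 3 were measured too. Of the 6 tested genes within 200 kb that are not S100 genes, Gatad2b, Ints3, Ilf2, Snapin, Chtop and Tchh, none passed and all overlapped between the regions, with log2 fold changes of -0.18 for Ints3 to -0.00 for Ilf2. Within the first group S100a4 rose while S100a6, the next tested gene along, did not pass, and within the other S100a11 rose while S100a10 beside it did not pass.

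**Figure D5:**
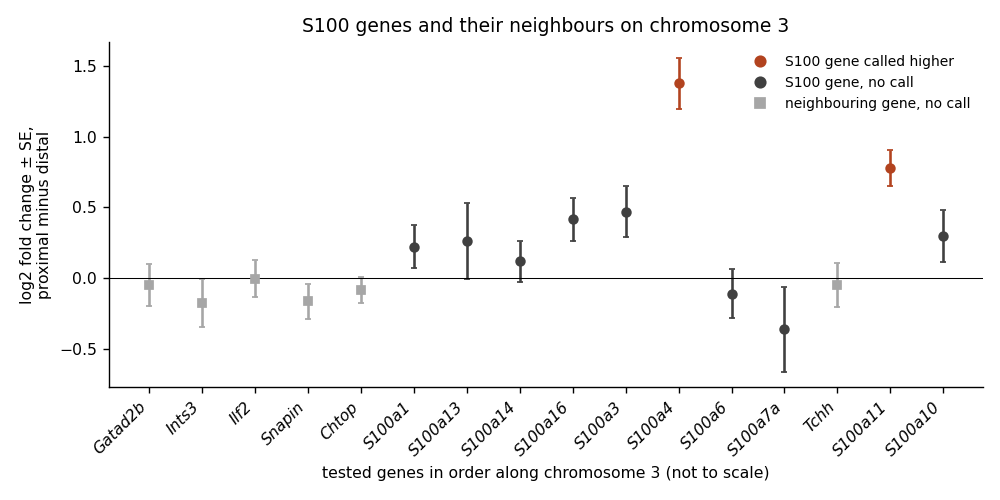
Log2 fold change, proximal minus distal, with its SE as a bar, of the 10 tested S100 genes of chromosome 3 (circles, orange where called higher) and their 6 tested neighbours (grey squares) in order along the chromosome, evenly spaced and not to scale. S100a4 at 1.38 and S100a11 at 0.78 stand above the other genes, and the neighbours lie between -0.18 and -0.00.

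The complex also holds cornified envelope genes. Of 13 tested genes on the list of such genes, 3 were lower in proximal cells, against 2.50% of all genes tested. On that list 10 did not pass and 0 were higher, while the median log2 fold change was 0.13. Lor, which encodes the envelope protein loricrin, was wholly above its distal values without a call (log2 fold change 0.24, limma, adjusted p = 0.265). Ivl, which encodes involucrin, an early envelope protein, was at 82.5, 77.9 and 80.8 FPKM in the proximal libraries, against 143, 161 and 175 FPKM in the distal ones. The regions were well apart, and Ivl fell by 0.98 on the log2 scale (limma, adjusted p = 0.00234). Sprr1b, a small proline-rich envelope protein, and Tgm1, the enzyme that cross-links the envelope and lies on another chromosome, had log2 fold changes of -0.98 ± 0.20 and -1.03 ± 0.21 (SE, by limma, adjusted p = 0.0290 and 0.0289). The call of Sprr1b was lost with no filter and without proximal replicate 2 or 3 or distal replicate 2 or 3, and that of Tgm1 with no filter and without proximal replicate 2 or distal replicate 2 or 3. The highest adjusted p in these settings was 0.112 for Sprr1b and 0.120 for Tgm1 (limma). Sprr1b averaged 0.642 FPKM in the proximal and 2.29 FPKM in the distal libraries, so it met the filter only through the distal ones. In the fused-type S100 genes, which join an S100 domain to long repeats in the same complex, 6 of 7 stayed below 1 FPKM in every library.

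Some genes had log2(FPKM + 1) values that ran closely with those of a called member over the 6 libraries. For S100a11, Wtap, which encodes a protein of the RNA methylation machinery, had a Pearson correlation of 0.9974. For S100a4 the closest were the kinesin gene Kif5b with 0.9928 and the ceruloplasmin gene Cp with 0.9915. These values describe 6 points that share the difference between regions, and they were picked from all 10255 tested genes.

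At the level of single transcripts, S100a4 and S100a11 each had 1 matched transcript, whose values were those of the gene. Their transcript calls therefore rest on the same values and are no separate result. All 14 transcripts of the members matched the annotation closely and had the status OK in every library. Of 13434 transcripts tested, 3.10% were called, and among the transcripts of members those of S100a4 and S100a11 were higher (limma, adjusted p = 0.0166 and 0.0207), while that of S100a16 did not pass (adjusted p = 0.229). With fewer libraries these transcript calls were lost: 1 was left without proximal replicate 1 and 0 without proximal replicate 2 or 3 or distal replicate 2 or 3, whereas both were left without distal replicate 1.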

How the data were processed

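Total RNA of 6 samples was made into cDNA and sequenced, per the labels' protocols. The tools were bcl2fastq 1.8.3, TopHat and Cufflinks with build mm10, per the submitters' processing notes. FPKM of 63241 transcripts, with intervals, is given for each library as deposited, per the file headers. The authors also deposited the coverage of each transcript, a signal not scaled to depth, used here only to judge depth. An exact 0 can be a failed estimate. The files hold no gene names, so transcripts were matched to GENCODE M21 (GRCm38, the assembly mm10) by span and spliced length. Of these, 53323 matched, with 93.9% of FPKM, and were summed per gene. On 2000 simulated transcripts 90.2% were assigned, 99.7% of them correctly. The sources used here do not state whether strand was used, so overlapping genes are uncertain. FPKM is not a count, so genes averaging at least 1 FPKM were tested on log2(FPKM + 1), with no scaling between libraries, by limma 3.58.1 (R 4.3.3) with a variance trend and no covariates, two-sided, with Benjamini-Hochberg adjustment and a threshold of 0.05. Transcripts were tested likewise, and the procedure was tested on simulated data. Depth was derived from the widths of deposited intervals of isolated transcripts.

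The members and gene lists were chosen with earlier results of these data known. Named were all members, the other S100 genes, up to 4 tested genes with the smallest p of each list, fixed partner pairs, tested neighbours within 200 kb and the 2 genes most like each called member. Further genes were named after their values were seen. Some genes that the rule names are not reported here. The alternatives were other pseudocounts, filters, scalings and matches, no variance trend, a replicate block and leaving out libraries.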

Additional observations from a re-analysis of the deposited data

How the results depend on the processing

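Of the 8 tested S100 members, 2 were higher and 0 lower in proximal cells, and over the settings that left out 1 library the count higher ranged from 1 to 2 and the count lower was 0. The count of member transcripts higher ranged from 0 to 2 there. S100a6 changed sign as given in the report, at 0.02 with quantile normalization and 0.05 without proximal replicate 2, and S100a14 reached -0.01 without proximal replicate 3. The labels give both regions the replicate numbers 1 to 3 without saying what they stand for. Deviations of same-numbered libraries correlated at 0.383, 0.045 and 0.286, and those of different-numbered libraries at -0.37 to 0.16. These values do not settle whether the numbers pair the libraries. The main fit used no block because the labels name no pairing. With the number as a replicate block, 3 members were higher, S100a16 being added (limma, adjusted p = 0.0324), and Anxa2 also passed (0.0144), with 880 genes higher and 732 lower in all, against 464 and 256 without it. Over all genes, 273 were higher and 168 lower with a filter at 5 FPKM, 416 and 137 with no filter, and 881 and 1328 without both libraries numbered 1, while leaving out 1 library gave 192 to 550 higher and 45 to 614 lower. The cause of these changes was not tested. S100a8 and S100a9 lay under the level tested, and what this depth could detect there was not tested.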
